A study of Mus musculus with 6 samples.

Results

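Glutathione and antioxidant enzyme genes were examined in the kidneys of mice given nanoplastic by mouth. The set was chosen by name from the deposited gene tables. It took protein-coding genes whose symbol begins with Gst followed by a letter and a digit, or with Mgst, Gpx, Prdx or Sod followed by a digit, together with Gclc, Gclm, Gss, Gsr, Ggt1, Nqo1, Txn1, Txn2, Txnrd1, Txnrd2, Srxn1, Nfe2l2 and Keap1. This gave 56 of the 57180 gene IDs in the tables. All 6 animals were wild-type male C57BL/6J mice, 7 weeks old when bought. The vehicle group (3 mice) received deionized water (0 mg/kg), and the nanoplastic group (3 mice) received cationic polystyrene nanoparticles at 200 mg/kg, by oral dosing each day over 6 weeks. Total RNA of snap-frozen kidney was sequenced as 1 library per mouse.

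Glutathione is a small thiol peptide made from glutamate, cysteine and glycine. Gclc and Gclm encode the catalytic and modifier subunits of the enzyme that performs the limiting step of its synthesis, and Gss encodes the enzyme that completes it. Glutathione S-transferases (GST) join glutathione to reactive compounds, while glutathione peroxidases, peroxiredoxins and superoxide dismutases remove peroxides and superoxide. The transcription factor encoded by Nfe2l2, known as NRF2, drives many of these genes when it escapes its inhibitor KEAP1. Kidney proximal tubule is a main site of glutathione breakdown, through the brush border enzyme encoded by Ggt1, and the main source of the plasma peroxidase encoded by Gpx3.

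No member passed the test of nanoplastic against vehicle. Of the 56 genes, 48 had enough counts to be tested, and none had an adjusted p under 0.05 in edgeR's quasi-likelihood test with Benjamini-Hochberg adjustment over all 18092 genes (0 of 48, where 0.0% of all genes passed). At an unadjusted p under 0.05 there were 5 members, and 7.42% of all genes lay there. Gclc was the 1 member measured lower at that level (3.61% of all genes), and the GST genes Gstt1, Gstm7, Gsta3 and Gsta2 were the 4 measured higher (3.8% of all genes). With DESeq2 on the same genes Gclc was called lower (adjusted p = 0.00404), 1 of 48 members, where that tool called 0.26% of all genes in either direction and 0.149% lower. Every library of one group lay beyond every library of the other for 5 members (12.9% of all genes). The 95% interval of the fold change lay inside 1.5-fold in either direction for 41 of the 48 tested members and inside 2-fold for 47.

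The libraries held 19408534 to 26292760 expected counts, and the summed share of the 56 genes was 1.17% ± 0.025 (SD, n = 3) in the vehicle mice against 1.15% ± 0.056 (SD, n = 3) in the nanoplastic mice. Defining markers of kidney epithelium were abundant: the 8 listed genes of proximal tubule segments 1 and 2 summed to 16160 to 17120 CPM (counts relative to library size, with TMM factors) in vehicle and to 14430 to 17270 CPM in nanoplastic. In bulk tissue, fewer cells of a type and less RNA per cell cannot be told apart. All 6 listed erythrocyte genes had negative fold changes, with sums of 602.8 to 880.3 and 507.1 to 646.0 CPM. The 8 macrophage genes summed to 108.1 to 117.7 and 98.4 to 104.0 CPM, and the 5 fibroblast genes to 193.7 to 251.7 and 156.2 to 211.7 CPM. The 6 adipocyte genes summed to 70.8 CPM in vehicle 3 and 201.9 CPM in nanoplastic 1, against 30.7 to 38.7 CPM in the other 4 libraries, and Ly6g of the neutrophil list was at 0 in all libraries. The part of these cell types in the results was not tested.

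Levels of the tested members spanned more than 3 orders of magnitude. In the deposited TPM values, which correct for transcript length and so allow genes to be compared within a library, the 5 most abundant members held 59.8% of the summed mean TPM of all 56. Gpx3 was first at a mean of 1013 TPM over the 6 libraries, followed by Gpx1 at 880.4, Prdx5 at 638, Ggt1 at 506, Gpx4 at 429, Sod1 at 372, Prdx1 at 295 and Gstp1 at 132 TPM. The selenium-dependent peroxidases Gpx3 and Gpx1 led the set, while the cysteine-dependent Gpx7 measured 0.553 TPM. In all, 11 members exceeded 100 TPM and 11 lay under 1 TPM.

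**Figure D1:**
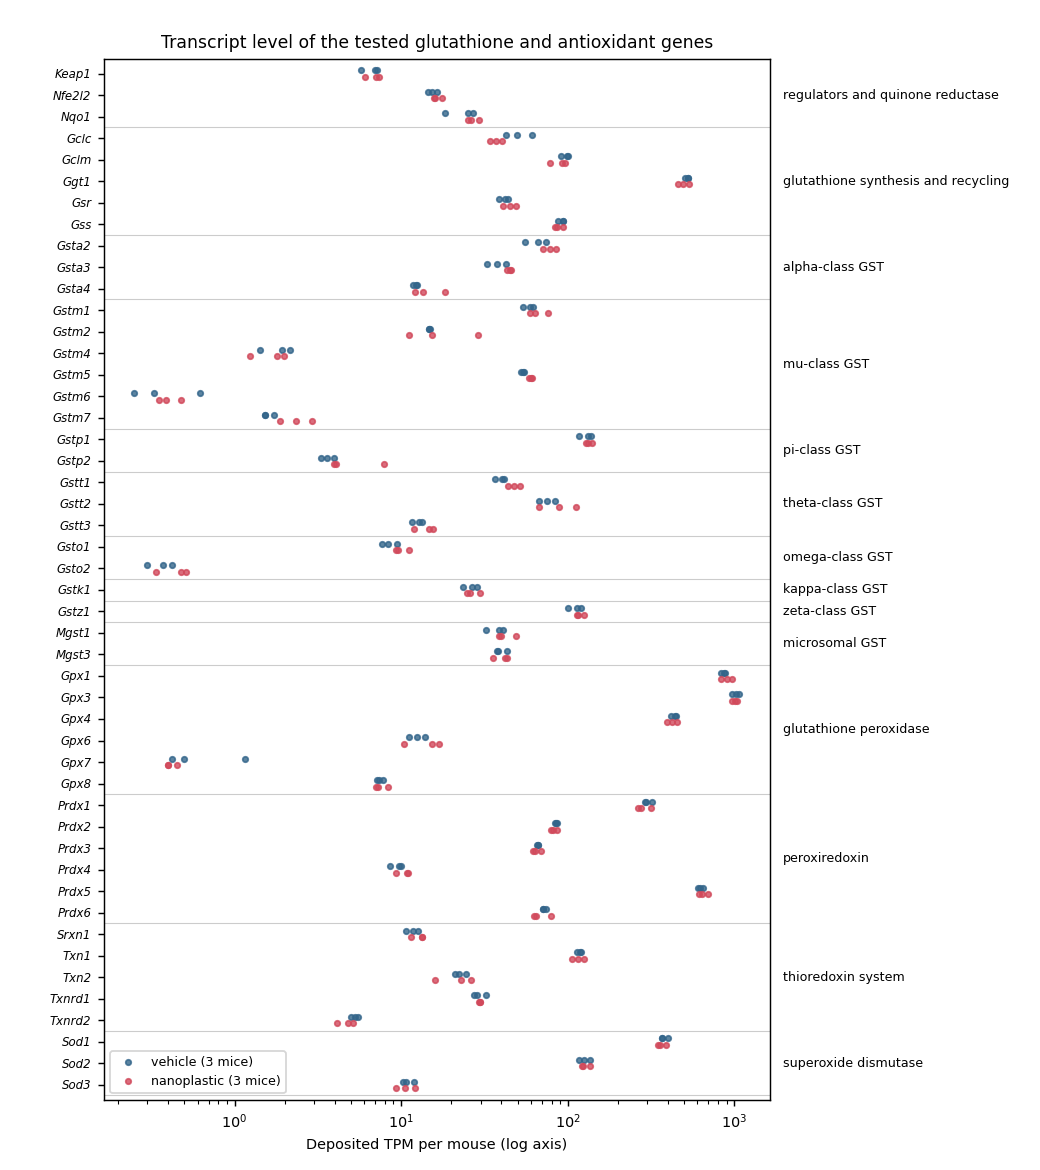
Deposited TPM (log axis) of the 48 tested members, grouped by family, with 1 point per mouse. Gpx3, Gpx1 and Prdx5 lie highest, and Gstm6 and Gsto2, both at a mean of 0.403 TPM, lie lowest.

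Transcripts of the regulators did not differ beyond the spread between mice. Nfe2l2 measured 60.2, 67.1 and 63.0 CPM in vehicle mice 1, 2 and 3 and 66.5, 59.8 and 67.7 CPM in nanoplastic mice 1, 2 and 3. The groups overlapped, and the log2 fold change was 0.03 (SE 0.07, 95% interval -0.13 to 0.19). Keap1, which encodes the adaptor that marks NRF2 for degradation, measured 40.8, 35.9 and 37.1 CPM in vehicle and 38.4, 37.3 and 35.6 CPM in nanoplastic. These ranges overlapped too, with a log2 fold change of -0.03 (SE 0.07). Nqo1, a quinone reductase widely used as a reporter of NRF2 activity, measured 67.9, 51.3 and 66.4 CPM in vehicle and 63.6, 71.9 and 69.4 CPM in nanoplastic. Vehicle 2 was the low library, and the log2 fold change of 0.14 (SE 0.10) had an interval from -0.08 to 0.37. Without vehicle 2 it was 0.02. The transcripts carry no information on the amount or location of the NRF2 protein.

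NRF2 binds with small MAF proteins to the antioxidant response element, whose core is TGACNNNGC (GCNNNGTCA on the other strand). RefSeq promoter windows of 300 bases, 250 before to 50 after the annotated start on GRCm38.p6, were present for 49 of the 56 members. The core was found on either strand in 11 of these 49 genes (22.4%), and in 14.0% of all 27025 genes with a window. Counted by window, 19.7% of 66 member windows and 12.4% of all 32851 windows held it. The 11 genes were Gsta3, Gstm7, Prdx1, Gclm, Txnrd1, Nfe2l2, Srxn1, Gstm5, Mgst1, Ggt1 and Sod1. Windows were present for Gstt1 and Gsta2, also measured higher at the unadjusted level, and for Nqo1, but held no core. A core more than 250 bases before the start lies outside the window and would not be found. A match is a description of letters and not evidence of binding. The stretches below are shown because they belong to Gsta3 and Gstm7, measured higher at the unadjusted level, to Prdx1, whose groups did not overlap in the lower direction, and to Gclm and Txnrd1, which belong to the same pathways. Each runs 5′ to 3′ in the direction of the gene, with the core in capitals. The Gsta3 core begins 121 bases before the start, the Gstm7 core 129, the Prdx1 core 133, the Gclm core 134 and the Txnrd1 core 92. Gstm7 has 2 windows and Txnrd1 has 3, and the distance is from the start of the window shown.
Gsta3 (chr1:21240444-21240492, plus strand): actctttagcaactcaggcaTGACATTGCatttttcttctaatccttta
Gstm7 (chr3:107931715-107931763, minus strand): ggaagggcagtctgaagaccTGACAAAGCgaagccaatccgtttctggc
Prdx1 (chr4:116685446-116685494, plus strand): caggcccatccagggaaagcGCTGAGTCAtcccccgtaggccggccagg
Gclm (chr3:122245403-122245451, plus strand): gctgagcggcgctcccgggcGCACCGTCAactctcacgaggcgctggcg
Txnrd1 (chr10:82859094-82859142, plus strand): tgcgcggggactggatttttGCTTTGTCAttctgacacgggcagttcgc
Among these 5 genes Gsta3 and Gstm7 had positive fold changes and Prdx1, Gclm and Txnrd1 negative ones. As Gsta3, Gstm7 and Prdx1 were picked for their direction, this mix is no result about the core. Of the other genes with a core, Gstm5, Mgst1 and Nfe2l2 had positive fold changes and Srxn1, Ggt1 and Sod1 negative ones. No window was present for Gclc, Gsr, Gsta4, Gstt2, Prdx6, Prdx6b and Sod3.

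In glutathione synthesis and recycling, Gclc had the lowest p of all members. It measured 271.0, 408 and 290 CPM in vehicle mice 1, 2 and 3 and 229, 211 and 224 CPM in nanoplastic mice 1, 2 and 3. Every nanoplastic library lay below every vehicle library, and vehicle 2 stood well above the other vehicle mice. The means were 323 ± 74.3 and 221.5 ± 9.26 CPM (SD, n = 3 each), a log2 fold change of -0.54 (SE 0.13) that had rank 73 by p among 18092 genes (edgeR, unadjusted p = 0.00162, adjusted p = 0.394). Without vehicle 2 the log2 fold change was -0.34. The early response gene Jun was also highest in vehicle 2, at 62.1 CPM against 16.9 to 26.0 CPM in the other 5 libraries. So were Fos, at 11.2 against 0.364 to 1.75 CPM, and Atf3, at 4.94 against 1.05 to 2.17 CPM. The heat shock gene Hspa1b stood at 269.55 CPM in vehicle 2 against 31.6 to 77.5 CPM. The part of this difference of vehicle 2 in the Gclc value was not tested. Over all alternatives the log2 fold change of Gclc ran from -0.66 to -0.34. The adjusted p ran from 0.00404 (DESeq2) to 0.9995 (edgeR without vehicle 2, unadjusted p = 0.00144). The largest unadjusted p of any alternative was 0.00931, with robust edgeR.

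The other genes of synthesis and recycling differed less. Gclm measured 212, 214 and 244 CPM in vehicle and 177, 214 and 230.5 CPM in nanoplastic, overlapping ranges with a log2 fold change of -0.11 (SE 0.10). Without nanoplastic 1 the value was -0.0048, and without vehicle 3 it was -0.04. Ggt1, which encodes gamma-glutamyltransferase, measured 1386, 1381 and 1256 CPM in vehicle and 1086, 1265 and 1309.5 CPM in nanoplastic. Nanoplastic 1 was the low library, and the log2 fold change was -0.14 (SE 0.09). Leaving that library out gave -0.06. Gss had a log2 fold change of -0.10 (SE 0.07). Gsr, which encodes the reductase that regenerates glutathione, was the steadiest of the 5 at a log2 fold change of 0.0027 (SE 0.06), with an interval from -0.12 to 0.13.

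The GST genes of the alpha, mu, pi, theta, omega, kappa and zeta classes leaned the other way. Of 22 such genes 18 were tested, 15 with positive and 3 with negative fold changes and a median log2 fold change of 0.14, where 48.0% of all genes were negative and the median of all genes was 0.01. This median was positive under each scaling tried, from 0.14 with DESeq2-type size factors to 0.21 in TPM, although the sign of single genes, Gstp1 and Gstk1 among them, changed with the scaling. The groups did not overlap for 3 of the 18, all higher (6.54% of all genes), and for none in the lower direction (6.32% of all genes). The median ranged with the libraries left out, from 0.18 without nanoplastic 2 (15 positive, 3 negative) to 0.09 without vehicle 3 (14 and 4) and 0.08 without nanoplastic 1 (15 and 3). Without both vehicle 3 and nanoplastic 1 it was 0.08, with 11 positive and 7 negative. The pattern was seen after the values, several genes of the same class share sequence or a chromosome, and none of the 18 passed the adjusted threshold. The remaining 30 tested members had 24 negative and 6 positive fold changes and a median of -0.08, which was -0.04 with library size alone and -0.02 in TPM. Without nanoplastic 1 the median of these 30 was likewise -0.02. The median of all genes moved with the scaling too. It was 0.05 with library size alone, and 0.04 and 0.07 in log2 of TPM plus 1 and plus 0.1. Medians of the GST genes and of these 30 include that shift.

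Gstt1, a theta-class GST that acts on small halogenated compounds, measured 67.5, 63.0 and 62.0 CPM in vehicle and 77.3, 72.0 and 74.4 CPM in nanoplastic. All nanoplastic libraries lay above all vehicle libraries, at a log2 fold change of 0.22 (SE 0.06, edgeR, unadjusted p = 0.00677, adjusted p = 0.519). Gstt2 measured 125 ± 14.2 and 140.1 ± 26.8 CPM (SD, n = 3 each) and Gstt3 40.6 ± 3.05 and 42.7 ± 2.68 CPM (SD, n = 3 each). Both overlapped between groups, Gstt2 at a log2 fold change of 0.16 (SE 0.12) and Gstt3 at 0.08 (SE 0.08).

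Among the alpha class, whose enzymes also reduce lipid hydroperoxides, Gsta3 measured 79.1, 71.8 and 82.2 CPM in vehicle and 87.0, 83.5 and 93.0 CPM in nanoplastic. The lowest nanoplastic library was just above the highest vehicle library, and the log2 fold change was 0.18 (SE 0.07; edgeR, unadjusted p = 0.0334, adjusted p = 0.637). Its unadjusted p was no longer under 0.05 without vehicle 1, vehicle 2 or nanoplastic 3. Gsta2 measured 80.4, 66.9 and 78.9 CPM in vehicle and 77.7, 90.8 and 97.6 CPM in nanoplastic, so that nanoplastic 1 lay inside the vehicle range (log2 fold change 0.23, SE 0.10; edgeR, unadjusted p = 0.0357, adjusted p = 0.647). Without vehicle 2 the Gsta2 value was 0.15 (unadjusted p = 0.154 by edgeR), and the 0.05 level was also missed without nanoplastic 2 or nanoplastic 3. Of the 50-base words in annotated Gsta2 transcripts 49.8% also occur in another gene, most often Gsta1, so the assignment of its reads is uncertain. Gsta4, whose enzyme favours the lipid peroxidation product 4-hydroxynonenal as substrate, measured 19.0, 19.8 and 16.7 CPM in vehicle and 25.5, 17.1 and 21.4 CPM in nanoplastic. Nanoplastic 1 was the high library, and the log2 fold change of 0.21 (SE 0.13) became 0.05 without it and -0.01 without it and vehicle 3.

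The mu-class genes, which lie together on chromosome 3, were uneven among the mice. Gstm7 measured 3.70, 3.69 and 3.27 CPM in vehicle and 5.77, 4.68 and 4.26 CPM in nanoplastic. The groups did not overlap (log2 fold change 0.47, SE 0.17; edgeR, unadjusted p = 0.0173, adjusted p = 0.597), on 257 counts in vehicle and 336 in nanoplastic. Without vehicle 3 and nanoplastic 1 its log2 fold change was 0.28, and the unadjusted p was not under 0.05 with either of these libraries left out. Gstm2 was set apart by nanoplastic 1 alone, which measured 43.6 CPM against 23.3 and 18.9 CPM in nanoplastic 2 and 3 and 22.5 to 26.1 CPM in vehicle. Its log2 fold change was 0.23 (SE 0.24). Without vehicle 3 and nanoplastic 1, Gstm2 was instead lower in nanoplastic, at an unadjusted p under 0.05 by edgeR. Gstm5 measured 81.2, 79.7 and 72.5 CPM in vehicle and 80.5, 81.6 and 88.4 CPM in nanoplastic, overlapping at a log2 fold change of 0.10 (SE 0.07). It was 0.05 without vehicle 3 and 0.06 without nanoplastic 3. Gstm1, the most abundant of the class at 62.4 TPM, had a log2 fold change of 0.10 (SE 0.08). Gstm4 stood at -0.17 (SE 0.16) and Gstm6 at -0.11 (SE 0.39).

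In the other classes, Gsto1, an omega-class enzyme with thioltransferase activity, measured 14.9, 16.5 and 16.1 CPM in vehicle and 18.9, 16.1 and 18.5 CPM in nanoplastic. Nanoplastic 2 lay inside the vehicle range, and the log2 fold change was 0.17 (SE 0.09). Gstp1, the most abundant GST at 132 TPM, measured 147, 132 and 133 CPM in vehicle and 125, 136 and 153 CPM in nanoplastic. Its log2 fold change of 0.0018 (SE 0.08) had an interval from -0.18 to 0.18, and 33.7% of its 50-base words are shared with Gstp2. On the same log2 fold change scale Gstz1 stood at 0.03 (SE 0.07), Gstk1 at -0.02 (SE 0.09), Gstp2 at 0.25 (SE 0.20) and Gsto2 at 0.12 (SE 0.31). The microsomal transferase Mgst1 stood at 0.06 (SE 0.09) and Mgst3 at -0.05 (SE 0.08). In Gstp2, 54.3% of the 50-base words occur in another gene, most often Gstp1, so the assignment of its reads is uncertain. Nanoplastic 3 was its high library, at 6.71 CPM against 3.57 to 4.86 CPM in the others.

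**Figure D2:**
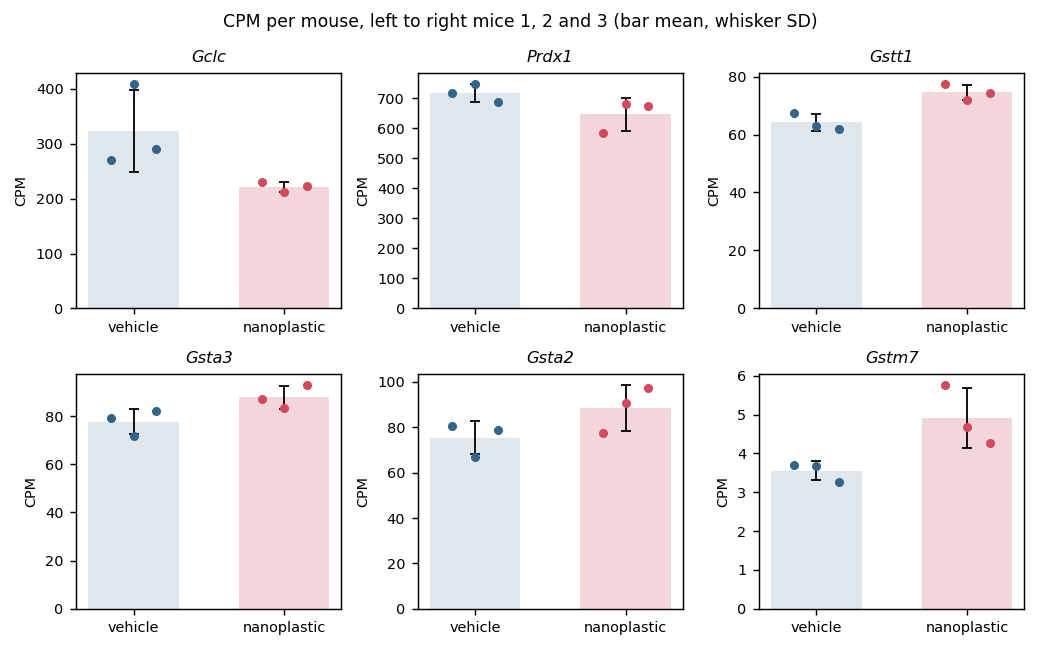
CPM of 6 members, with 1 point per mouse, bars for group means and whiskers for the SD (n = 3 each). Gclc and Prdx1 lie lower in every nanoplastic library, Gstt1, Gsta3 and Gstm7 lie higher in every nanoplastic library, and Gsta2 overlaps.

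The glutathione peroxidases held no difference beyond the spread between mice. Gpx3, the secreted plasma enzyme, measured 2829, 2785 and 2716 CPM in vehicle and 2419, 2523 and 2921 CPM in nanoplastic. Nanoplastic 3 was the highest and nanoplastic 1 the lowest of the 6 libraries, and the log2 fold change was -0.08 (SE 0.09). Gpx1, the main cytosolic enzyme, measured 1402, 1388 and 1255 CPM in vehicle and 1189.5, 1358 and 1489 CPM in nanoplastic. Here too nanoplastic mice 1 and 3 were the extremes, around a log2 fold change of -0.0032 (SE 0.09, interval -0.21 to 0.21). Gpx4, which reduces lipid hydroperoxides in membranes and restrains ferroptosis, measured 629, 607 and 554 CPM in vehicle and 492.5, 579.7 and 605 CPM in nanoplastic, with a log2 fold change of -0.09 (SE 0.09). In Gpx4, 34.7% of the 50-base words also occur in a pseudogene.

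The less abundant peroxidases were measured with less precision. Gpx7, an enzyme of the endoplasmic reticulum, measured 1.09, 0.954 and 1.66 CPM in vehicle and 0.772, 0.793 and 0.988 CPM in nanoplastic on 89 and 57 counts. The ranges overlapped, and the interval of its log2 fold change of -0.55 (SE 0.31) ran from -1.23 to 0.14, the only one of the 48 to reach 2-fold. Without vehicle 3 the value was -0.28. Gpx6 stood at a log2 fold change of 0.10 (SE 0.14) and Gpx8 at -0.08 (SE 0.11).

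Prdx1, an abundant cytosolic peroxiredoxin, was the 1 member besides Gclc whose groups did not overlap in the lower direction, 2 of 48 members against 6.32% of all genes. It measured 717, 746 and 688 CPM in vehicle and 584, 680 and 675 CPM in nanoplastic. The highest nanoplastic library came just under the lowest vehicle library, and the log2 fold change was -0.15 (SE 0.08; edgeR, unadjusted p = 0.0822, adjusted p = 0.708). Without nanoplastic 1 it was -0.08. Prdx6, which has phospholipase as well as peroxidase activity, measured 157, 165 and 149 CPM in vehicle and 130, 157 and 146 CPM in nanoplastic, overlapping at -0.12 (SE 0.08). Without nanoplastic 1 its log2 fold change was -0.05, and without nanoplastic 2 it was -0.19. Prdx5, the third most abundant member, measured 1049, 1016 and 909.6 CPM in vehicle and 858, 969 and 1039 CPM in nanoplastic, overlapping at -0.05 (SE 0.09). The mitochondrial Prdx3 stood at a log2 fold change of -0.09 (SE 0.08), Prdx2, abundant in erythrocytes, at -0.04 (SE 0.08), and the secretory pathway enzyme Prdx4 at 0.07 (SE 0.09).

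The thioredoxin system, which returns electrons from NADPH to the peroxiredoxins, had 5 negative log2 fold changes among 5 genes with TMM scaling. With library size alone 4 were negative, and in TPM 3 were, but the median of all genes was also higher under these scalings. Txn1 stood at -0.09 (SE 0.07) and its mitochondrial counterpart Txn2 at -0.10 (SE 0.11). The reductase gene Txnrd1 stood at -0.06 (SE 0.07) and Txnrd2 at -0.09 (SE 0.11). Srxn1, which repairs overoxidised peroxiredoxins, had -0.02 (SE 0.08).

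The superoxide dismutases were close between groups. Sod1, the cytosolic copper and zinc enzyme, measured 368, 343 and 307 CPM in vehicle and 289, 324 and 332 CPM in nanoplastic, with a log2 fold change of -0.11 (SE 0.08). Without vehicle 1, and likewise without nanoplastic 1, it was -0.05, and without vehicle 3 it was -0.18. Sod2, the mitochondrial manganese enzyme, measured 327, 325 and 328 CPM in vehicle and 308, 337 and 331 CPM in nanoplastic. The vehicle mice agreed within 0.379% (coefficient of variation), the log2 fold change was -0.01 (SE 0.06), and its interval ran from -0.14 to 0.13. Sod3, the extracellular enzyme, measured 75.3, 75.9 and 76.9 CPM in vehicle and 59.2, 67.5 and 87.5 CPM in nanoplastic. The nanoplastic mice lay on both sides of a narrow vehicle range, and the log2 fold change was -0.09 (SE 0.12).

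**Figure D3:**
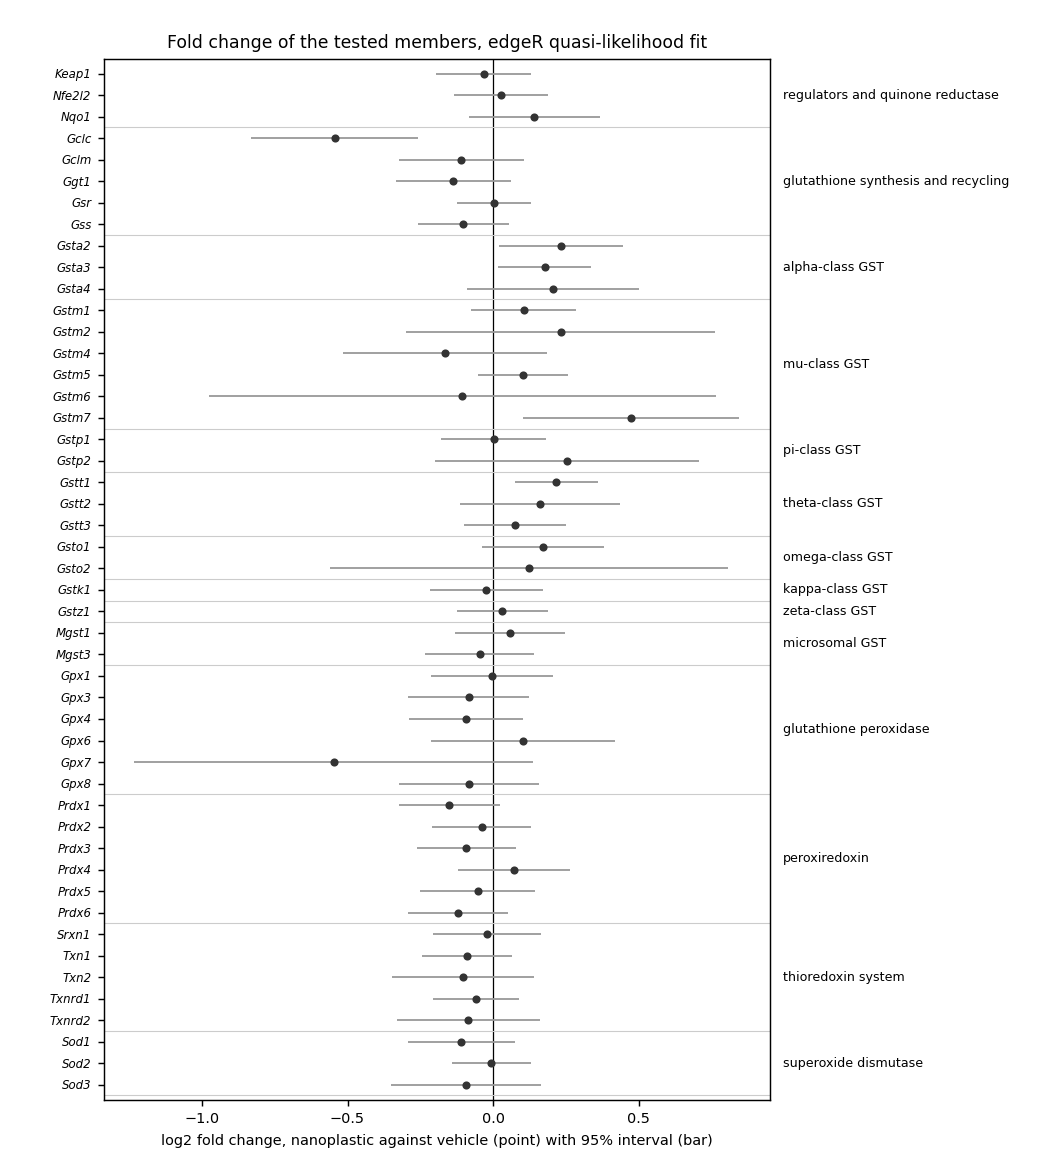
The log2 fold change of nanoplastic against vehicle (points) with its 95% interval (bars) for the 48 tested members, grouped by family. The intervals of Gclc, Gsta2, Gsta3, Gstm7 and Gstt1 leave out 0, and Gpx7 has an interval from -1.23 to 0.14.

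Among the mice, nanoplastic 1 differed from the other nanoplastic libraries in many members at once. It was the lowest of the 6 libraries in 21 of 48 members (43.8%), against 19.4% of all genes, and the highest in 9 (18.8%), against 21.8% of all genes. Of the 11 members over 100 TPM it was the lowest in 10, with Gstz1 the exception. It was the highest library for Gstm1, Gstm2, Gstm7, Gsta4, Gstt1, Gstt3, Gsto1, Gsto2 and Gpx6, of which all but Gpx6 are GST genes. In the same library the listed genes of proximal tubule segments 1 and 2 summed to 14430 CPM against 16160 to 17270 CPM in the other 5, and those of segment 3 to 4066 CPM against 4334 to 4850 CPM. Its collecting duct principal cell genes summed to 281.4 CPM against 173.8 to 194.9 CPM, its urothelial genes to 17.4 CPM against 1.70 to 5.46 CPM, and its adipocyte genes to 201.9 CPM. The part of this difference in the members' values was not tested. Without nanoplastic 1 the median log2 fold change of the 48 members was 0.01 in place of -0.02, and that of the 18 GST genes was 0.08 in place of 0.14. Without both nanoplastic 1 and vehicle 3, Gclc, Gsta2, Gsta3 and Gstt1 had log2 fold changes of -0.64, 0.36, 0.23 and 0.17. In that fit Gstm2 was also at an unadjusted p under 0.05 by edgeR, in the lower direction.

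**Figure D4:**
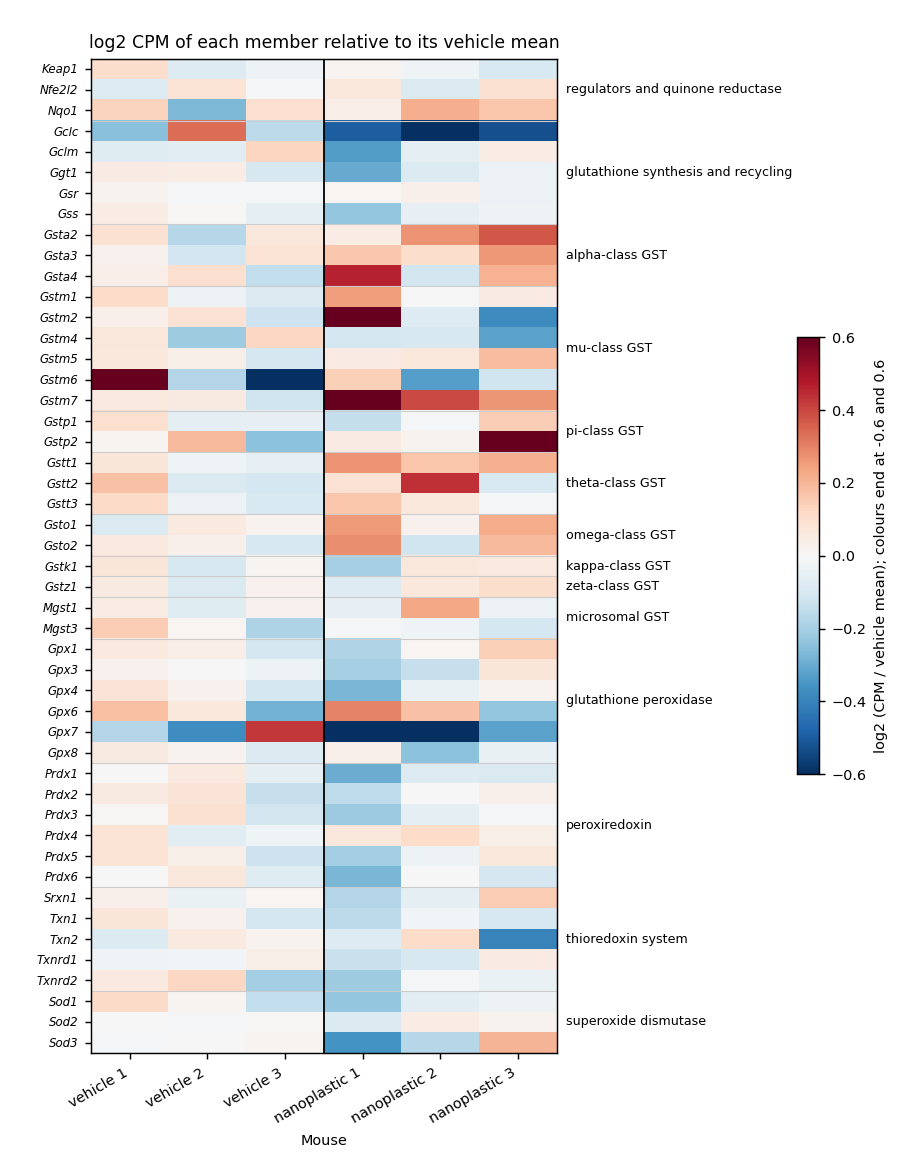
The log2 CPM of each tested member relative to its vehicle mean, with 1 column per mouse (blue lower, red higher, colours end at -0.6 and 0.6). The Gclc row is blue in all 3 nanoplastic mice, and nanoplastic 1 is pale blue in most peroxidase and dismutase rows and red in several GST rows.

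Of the 8 members below the count filter, Gpx5 had no count in any library, which allows at most 0.114 to 0.155 CPM per library (3 counts of the total). Gpx2, known from the gut, had 0 counts in vehicle and 2 in nanoplastic over 3 libraries each, Gstt4 0 and 2, and Prdx6b 0 and 1. Gstm3 had 3 and 1 counts and Gstp3 had 3 and 11. Mgst2 had 13 and 11 counts, and Gsta1 had 13.7 and 6.01 expected counts, 90.5% of its 50-base words being shared with another gene. At these counts no difference between the groups could be measured.

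Related genes outside the set were taken from 4 further lists, which held 86 genes, 83 of them tested. The lists covered glutathione turnover and precursor supply, other thiol and hydroperoxide enzymes, NADPH supply, and NRF2 regulators with further NRF2 targets. None passed in edgeR's test over all genes. At an unadjusted p under 0.05, 4 were lower and 5 higher of the 83, where 3.61% of all genes were lower and 3.8% higher, so that both counts were near the share over all genes. The groups did not overlap for 8 of the 83 in the lower direction (6.32% of all genes) and 5 in the higher (6.54%). Those named below are Ggt5, Glrx5, Selenot, Hmox1 and Ftl1 (lower) and Abcc1, Sephs2, Ces1g and Ephx1 (higher). In glutathione turnover and precursor supply, 18 of 25 tested genes had negative fold changes. Among export pumps for conjugates, Abcc4 stood at a log2 fold change of 0.30 (SE 0.12) and Abcc1 at 0.20 (SE 0.08). The peptidase gene Anpep stood at -0.27 (SE 0.11) and the transferase gene Ggt5 at -0.28 (SE 0.14). Without nanoplastic 1, Abcc4 was at 0.16 and Anpep at -0.14, and without vehicle 1 Ggt5 was at -0.17. Slc7a11, the cystine importer and an NRF2 target, was below the filter with 28 counts in vehicle and 13 in nanoplastic.

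Among other thiol and hydroperoxide enzymes 14 of 26 were negative. Sephs2, which makes the selenium donor for selenoproteins, had a log2 fold change of 0.21 (SE 0.07) and Txnrd3 had 0.14 (SE 0.09), while the selenoprotein gene Selenot had -0.16 (SE 0.06) and Glrx5, a mitochondrial glutaredoxin, had -0.16 (SE 0.07). Cat, the peroxisomal catalase, had 0.04 (SE 0.11). In NADPH supply 6 of 9 tested genes were negative, with Nadk at -0.14 (SE 0.06), Me1 at -0.16 (SE 0.09), Idh2 at 0.06 (SE 0.06) and Tkt at 0.05 (SE 0.06). Without nanoplastic 1, Me1 was at -0.08 and Txnrd3 at 0.08. Nnt was not used because 2 gene IDs carry its symbol.

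NRF2 regulators and further NRF2 targets had 11 negative and 12 positive fold changes among 23 genes. Hmox1, the inducible heme oxygenase, had a log2 fold change of -0.35 (SE 0.10) and Ftl1, the ferritin light chain, had -0.22 (SE 0.08), each with groups that did not overlap. The macrophage sums given above were also lower in every nanoplastic library, while the erythrocyte sums leaned lower with overlapping ranges. The part of these cell types in the Hmox1 and Ftl1 values was not tested. Ces1g, a carboxylesterase, stood at 0.66 (SE 0.22) and Ephx1, the microsomal epoxide hydrolase, at 0.49 (SE 0.17), with every nanoplastic library above every vehicle library. A single library moved each value: Ces1g was at 0.31 without nanoplastic 2, and Ephx1 was at 0.21 without nanoplastic 1 and 0.14 without nanoplastic 1 and vehicle 3. The edgeR adjusted p of these 4 genes lay between 0.520 and 0.611. All 83 tested genes together had a median log2 fold change of -0.02, against 0.01 for all genes.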

How the data were processed

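The submitters' processing notes list RSEM 1.3.3, STAR 2.7.9a, Trim Galore 0.6.6, FastQC and build GRCm39. Annotation release and strand setting are not given in the sources used here. Each library has 1 gene table that the authors deposited, whose header names TPM, FPKM and the expected count. The 2 genes with the highest deposited TPM took 55.5% to 59.4% of it, so TPM served for order among genes and in alternatives. The deposited FPKM was not used. Symbols came from GENCODE vM21 by gene ID (51933 of 57180), which is on another build.

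In R 4.3.3, expected counts were rounded and passed through filterByExpr and TMM scaling. The test was glmQLFTest of edgeR 4.0.16 after glmQLFit with legacy off and group as the only term. Alternatives used DESeq2 1.42.0, limma 3.58.1 (voom, and log2 of TPM plus 1 or 0.1), other scalings, no filter, the replicate number as a block, and libraries left out. Counts were simulated for this comparison and these 18092 genes in 3 runs. Only genes with a mean of at least 1 CPM were changed, 150 of each size over all runs. Of these, edgeR called 13.3% of genes given the smallest change, below 1.5-fold, and 60%, 75.3% and 94.7% of genes changed by 1.5, 2 and 3-fold. False calls among the unchanged genes numbered 13.7 per run. Calls of changed genes over all 3 runs numbered 20, 90, 113 and 142 by rising size. The false calls were thus a larger share of all calls than the 0.05 threshold names. Each run changed genes of all these sizes together. The Benjamini-Hochberg adjustment is stricter where fewer genes change, so the shares called do not carry over to that case. Standard errors and intervals of fold changes include the spread between mice, and the limit given for a count of 0 covers counting error only.

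The members and gene lists were chosen with earlier results of these data known. Values of every mouse are given for the 12 members with the lowest p, the 8 with the highest TPM and 11 fixed ones. From each pathway list the 2 genes with the lowest p in each direction were named, with Cat, Hmox1 and Slc7a11. Gstm2, Jun, Fos, Atf3, Hspa1b and the promoter stretches were chosen after values were seen.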

Additional observations from a re-analysis of the deposited data

How the results depend on the processing

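Of 697 values of 41 named genes under 17 alternatives, 661 kept their direction and side of the threshold, 1 passed it (Gclc with DESeq2, log2 fold change -0.55, adjusted p = 0.00404) and 35 in 10 genes had the opposite sign. All genes called numbered 0 with edgeR, 47 with DESeq2, 3 with robust edgeR (chosen after seeing the data), 30 without vehicle 3 and nanoplastic 1, and 0 to 10 with 1 library left out, the 10 being without nanoplastic 1. Members called numbered 1 with DESeq2 and 0 under every other setting. Members at an unadjusted p under 0.05 numbered 3 (without vehicle 2) to 6 (without nanoplastic 2) with 1 library left out. Pathway genes called numbered 0 throughout. Genes at an unadjusted p under 0.05 split into 688 higher and 654 lower, 1037 and 382 with library size alone, and 717 and 253 in TPM plus 1. With the replicate number as a block 0 genes were called, members at an unadjusted p under 0.05 stayed at 5, and Gstp1 was at -0.0005. Deviations of same-numbered mice correlated at 0.0436, -0.023 and 0.103, and those of differently numbered mice at -0.1225 to 0.0763. With 3 mice a group these values cannot settle whether the numbers paired the mice. With library size alone Gpx1 was at 0.0384, Keap1 at 0.0128 and Sod2 at 0.0362. In TPM plus 1 and plus 0.1 Gpx1 was at 0.0638 and 0.0639, Prdx5 at 0.0599 in both, Keap1 at 0.0389 and 0.0444, and Sod2 at 0.0225 and 0.0227. Gstp1 was at -0.0009 with DESeq2, at -0.0011 with limma-voom and with RLE size factors, and at -0.0052 without a count filter. Without vehicle 3 and nanoplastic 1, Gsta4 was at -0.0136, Gpx1 at 0.0327, Gclm at 0.0656, Sod2 at 0.0379, Sod3 at 0.0369 and Cat at 0.2279. With 1 library, or that pair, left out, the log2 fold changes ran from -0.0826 to 0.0805 for Gpx1, -0.1187 to 0.0204 for Prdx5, -0.077 to 0.0715 for Gstp1, -0.0103 to 0.0805 for Nfe2l2, -0.0699 to 0.0229 for Keap1, -0.1922 to 0.0656 for Gclm, -0.0136 to 0.3443 for Gsta4, -0.0322 to 0.0379 for Sod2, -0.2627 to 0.0369 for Sod3 and -0.0472 to 0.2279 for Cat. The cause of these moves was not tested. With 3 mice a group, 60% of simulated 1.5-fold changes were called, and 13.3% of the smallest changes simulated, in runs where many genes changed at once. Runs with few changed genes, where the adjustment is stricter, were not simulated.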
